A study of Homo sapiens with 3 samples.

Results

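The genes of the epidermal growth factor (EGF) receptor family and of the ligands that act on it were examined for PHF13 and EZH2 peaks in PANC-1 cells, a line established from a human carcinoma of the pancreatic duct. The set holds 10 of the 20162 protein-coding genes annotated here, 4 receptors (EGFR, ERBB2, ERBB3 and ERBB4) and 6 ligands (EGF, TGFA, AREG, EREG, HBEGF and BTC), and it is defined by family membership, although it was picked for study with earlier results of these data known. A peak was counted for a gene when any of its bases lay within 5 kb of an annotated transcription start site or inside the gene body, here called in reach. Peaks up to 100 kb from the gene were described as well.

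ChIP-seq was run in wild-type cells with no listed treatment, with 1 library for a PHF13 antibody, 1 for an EZH2 antibody and 1 for input chromatin. PHF13 is a PHD-finger protein that reads H3K4 methylation, and EZH2 is the methyltransferase of Polycomb repressive complex 2 (PRC2), which places the repressive mark H3K27me3. The chromatin came from cells of a single plate, fixed with the protein crosslinker EGS and then with formaldehyde, and the PHF13 antibody was a rabbit polyclonal made for the study. The PHF13 list held 19039 peaks with a median of 21 fragments at the summit (the base where a peak has its highest coverage), and the EZH2 list held 21639 peaks with a median of 25. There were no replicates, so every value below describes these 2 lists, no difference can be weighed against replicate error, and no p-value is given. The lists hold no expression values, and the identity of the cell line was not checked here.

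The 4 receptors are tyrosine kinases that pair at the cell surface when a ligand binds and then signal through the RAS-MAPK and PI3K-AKT routes. EGF, TGFA and AREG bind EGFR, HBEGF, BTC and EREG bind EGFR and ERBB4, ERBB3 pairs with other members because its own kinase is weak, and ERBB2 has no known ligand. In the pancreas, EGFR and TGFA are known for their part in the change of acinar cells into duct-like cells and in ductal carcinoma.

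PHF13 and EZH2 peaks shared 3 of the members and differed in their distance from the canonical start, the start of the transcript that the annotation ranks as representative. PHF13 peaks were in reach of 5 of the 10 genes (EGFR, ERBB4, TGFA, EREG and HBEGF), with 10 peaks in all, of which 1 had its summit within 1 kb of that start. EZH2 peaks were in reach of 6 (ERBB2, ERBB3, ERBB4, TGFA, HBEGF and BTC), with 11 peaks, of which 7 had their summit within 1 kb of it. Introns held 9 of the 10 PHF13 and 8 of the 11 EZH2 summits, and intron 1 held 6 of each. ERBB4, TGFA and HBEGF had peaks of both lists. A −log10 q of at least 3, the limit that the methods state for PHF13 but not for EZH2, left only 1 of them (ERBB4) when applied to both lists. TGFA dropped out through its PHF13 peak (−log10 q 2.48). HBEGF dropped out through its EZH2 peak (2.97), while its PHF13 peak (4.12) passed. EGF and AREG had none in reach. Across all protein-coding genes, 31.2% had a PHF13 peak in reach, 30.0% an EZH2 peak and 12.6% both. The exact (Clopper-Pearson) 95% intervals of the members' shares were 18.7% to 81.3% for PHF13, 26.2% to 87.8% for EZH2 and 6.67% to 65.2% for both. They cover counting error only, and each includes the share over all genes.

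**Figure D1:**
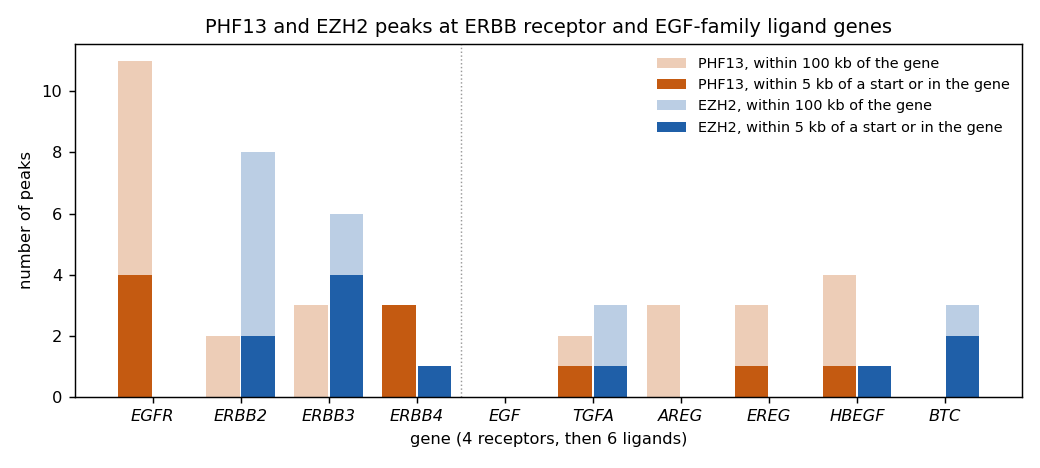
Number of peaks (vertical axis) at each of the 10 genes (horizontal axis), with PHF13 in orange and EZH2 in blue. Dark bars count peaks in reach and pale bars all peaks within 100 kb of the gene. EGFR had 11 PHF13 and 0 EZH2 peaks within 100 kb, while ERBB2 had 2 and 8.

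At gene starts the members' counts for the antibodies went apart, although the exact intervals of their shares overlap. Counting only peaks within 5 kb of a start left HBEGF as the 1 member with a PHF13 peak (21.0% of all protein-coding genes), whereas the 6 members with EZH2 peaks all remained (23.6% of all genes). The exact intervals of the members' shares were 0.253% to 44.5% for PHF13 and 26.2% to 87.8% for EZH2. The PHF13 interval includes the share over all genes, and the EZH2 interval begins above it. At a −log10 q of at least 3, HBEGF drops out (2.97) and 5 members keep an EZH2 peak. The exact interval of 5 of 10 begins lower, at 18.7%. The share of all genes near starts was not counted at that limit. These intervals cover counting error only, for members picked with earlier results known. A summit within 1 kb of the canonical start, a limit chosen after the values were seen, was present for EZH2 at the same 6 members, compared with 12.4% of all genes, and for PHF13 at HBEGF, compared with 9.67%. Of these EZH2 peaks, those at ERBB3 (−log10 q 2.55) and HBEGF were below 3. At that limit only ERBB2, ERBB4, TGFA and BTC would remain. An EZH2 peak wider than 1 kb lay within 5 kb of a start at 3 members (ERBB2, ERBB4 and TGFA), compared with 7.04% of all genes. The exact interval of the members' share, 6.67% to 65.2%, includes that value. The ERBB2 peak passed the 1 kb limit only narrowly, at 1003 bp. PHF13 peaks lay within 100 kb of 8 members and EZH2 peaks within 100 kb of 6, against 75.6% and 77.1% of all genes.

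Gene length bears on such counts, because a long gene can hold more peaks. Among genes longer than 100 kb, 61.8% had a PHF13 and 56.4% an EZH2 peak in reach. The 4 members of that length are EGFR, ERBB4, TGFA and EGF, of which 3 had PHF13 and 2 had EZH2. Among genes of 20 to 100 kb, the shares were 32.6% and 29.6%, and of the 4 members of that length (ERBB2, ERBB3, EREG and BTC) 1 had PHF13 and 3 had EZH2. Genes shorter than 20 kb had PHF13 in 16.5% and EZH2 in 19.1% of cases, and of AREG and HBEGF only HBEGF had either, and it had both.

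EGFR (ENSG00000146648, chr7:55086710-55279321, plus strand, on GRCh37 as all positions here) encodes the receptor for EGF and TGFA and was the member with the most PHF13 peaks. There were 11 within 100 kb of the gene, 5 upstream, 4 inside the gene and 2 downstream, and no EZH2 peak in that window. Of the 11, 7 had a −log10 q of at least 3 and 4 one of at least 5, and the shares and density that follow use all 11. The closest EZH2 summit to its start was 327722 bp away. At least as many PHF13 peaks within 100 kb were found at 1.14% of protein-coding genes, and at least as many without any EZH2 peak there at 0.0397%, which is 8 genes with EGFR among them. Both limits are EGFR's own counts, so EGFR met them by construction. These shares describe its rank only and take no account of gene length. In the EGFR window the density was 28.02 PHF13 peaks per Mb, against 6.58 over the whole of chromosome 7. Of the 11 peaks, 10 were single-copy, which means that the median 24-mer around the summit occurs once in the genome. The exception was the most distant of the upstream peaks, at 62.1 kb, where it occurs 2 times.

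The strongest PHF13 peaks near EGFR lay upstream and not in the gene. The highest was at chr7:55035031-55035405, 51.5 kb before the start, enriched 6.61-fold over the local background (−log10 q 18.5). Its summit held 41 fragments (exact Poisson 95% interval 29.4 to 55.6). Its −log10 q stood at percentile 95.3 of the PHF13 list. The upstream peaks at 31.1 kb (chr7:55055543-55055762, fold enrichment 5.06, −log10 q 9.73) and at 22.8 kb (chr7:55063757-55063993, fold enrichment 4.94, −log10 q 9.76) followed. The peak at 39.9 kb had a fold enrichment of 3.92, and that at 62.1 kb had 3.11. These 5 summits spanned 39.3 kb, and none was closer than 22819 bp to the EGFR start.

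Inside EGFR, the 4 PHF13 peaks all lay in intron 1. They were 29.4, 46.4, 46.7 and 55.1 kb after the start, with fold enrichments of 3.57, 2.83, 2.68 and 3.50. The summits at 46.4 and 46.7 kb were only 336 bp apart. By fold enrichment all 4 were below the 4 highest upstream peaks, whereas by −log10 q the peak at 55.1 kb (5.07) was above the upstream peak at 39.9 kb (4.47). Their summit counts, from 21 to 27 fragments, had intervals that overlap each other and that of the upstream peaks of 29 and 30 fragments. The 2 downstream peaks had fold enrichments of 2.93 and 3.30.

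**Figure D2:**
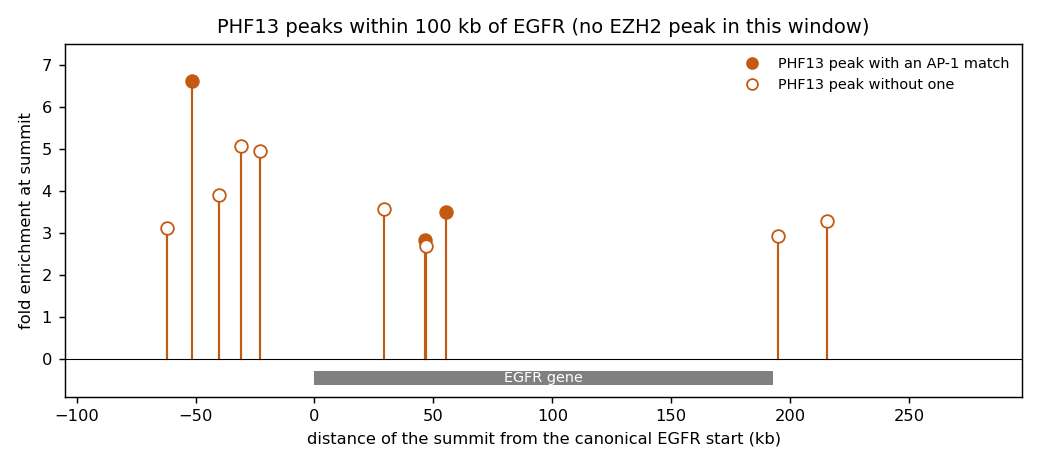
PHF13 peaks within 100 kb of EGFR, by the distance of the summit from the canonical start in kb (horizontal axis) and fold enrichment (vertical axis); filled points hold an AP-1 match and the grey bar is the gene. The highest peak is 51.5 kb upstream, and the 4 peaks inside the gene lie between 29.4 and 55.1 kb after the start.

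An AP-1 match, TGACTCA or its reverse complement TGAGTCA, is the sequence bound by FOS and JUN dimers, factors that act downstream of EGF receptor signalling. It was found within 200 bp centred on the summit of 5 of the 28 PHF13 peaks within 100 kb of any member (17.9%, exact 95% interval 6.06% to 36.9%), compared with 11.2% of all PHF13 peaks. EGFR had 3 of these 5, 1 lay in EREG and 1 near HBEGF inside ANKHD1. None of the 22 EZH2 peaks within 100 kb of a member held the motif, for which the exact interval reaches 15.4%, and 2.31% of all EZH2 peaks did. The GRCh37 plus-strand windows of the 5 PHF13 summits are given because they are the members' peaks with a match, which is in capitals.
EGFR, 51.5 kb upstream (chr7:55035121-55035320): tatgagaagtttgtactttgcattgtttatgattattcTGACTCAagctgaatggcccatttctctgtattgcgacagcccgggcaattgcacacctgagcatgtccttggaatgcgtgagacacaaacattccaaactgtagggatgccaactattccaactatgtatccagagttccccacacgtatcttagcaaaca
EGFR, intron 1 at 46.4 kb (chr7:55132993-55133192): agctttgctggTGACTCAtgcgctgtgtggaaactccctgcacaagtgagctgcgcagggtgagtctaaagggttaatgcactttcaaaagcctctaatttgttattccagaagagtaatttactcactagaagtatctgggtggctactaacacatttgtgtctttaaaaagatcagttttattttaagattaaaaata
EGFR, intron 1 at 55.1 kb (chr7:55141741-55141940): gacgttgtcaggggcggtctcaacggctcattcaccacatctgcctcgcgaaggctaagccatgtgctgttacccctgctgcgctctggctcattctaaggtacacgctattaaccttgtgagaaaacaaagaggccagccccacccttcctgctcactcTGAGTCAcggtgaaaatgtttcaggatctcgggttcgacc
EREG, intron 1 (chr4:75240309-75240508): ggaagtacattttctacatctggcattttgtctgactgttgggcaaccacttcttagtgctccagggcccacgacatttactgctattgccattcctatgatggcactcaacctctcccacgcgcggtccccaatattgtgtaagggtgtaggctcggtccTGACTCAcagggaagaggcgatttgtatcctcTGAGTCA
Near HBEGF, in ANKHD1 (chr5:139788630-139788829): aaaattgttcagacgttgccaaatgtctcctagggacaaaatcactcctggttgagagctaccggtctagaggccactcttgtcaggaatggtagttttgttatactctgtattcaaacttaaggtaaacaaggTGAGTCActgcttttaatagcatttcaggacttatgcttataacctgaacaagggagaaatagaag

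The strongest EGFR peak thus held 1 match, whose first base was 62 bp from the summit, while the window in EREG held 2. In the EGFR intron the matches began 89 and 60 bp from the summits, and near HBEGF 34 bp. A match describes letters in the window and does not show which protein was bound. The upstream EGFR peaks at 31.1 and 22.8 kb held no AP-1 match. The TEAD match CATTCC, searched on both strands, was present in 4 of the 28 PHF13 peaks (14.7% of the whole list) and in 3 of the 22 EZH2 peaks (11.3% of the list).

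Protein-coding genes with the same peak counts as EGFR were sought among the 918 genes whose length is within 20% of its length. Of these, 75 had at least 4 PHF13 peaks in reach, 427 had no EZH2 peak in reach and 35 met both conditions. The 5 nearest to EGFR by count and then by length were ANKRD28, KANSL1, PLAC1, SPATS2L and ARSB, each with 4 PHF13 and 0 EZH2 peaks in reach. PLAC1 and EGFR had none of these within 5 kb of a start, while each of the other 4 had at least 1 there.

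ERBB4 (ENSG00000178568, chr2:212240442-213403565, minus strand) is a neuregulin receptor and the longest member, at 1163 kb. Its start lay under an EZH2 peak of 1861 bp (chr2:213401950-213403810), enriched 4.53-fold with 95 summit fragments (interval 76.9 to 116). Its −log10 q of 29.1 stood at percentile 96.2 of the EZH2 list. The summit was 641 bp into the gene, in intron 1. PHF13 had 3 peaks in ERBB4 introns, in intron 1 at 71.5 kb (fold enrichment 4.02), in intron 24 (3.83) and in intron 25 (4.97, −log10 q 8.18). All 3 had a local background at 4.23 fragments, the lowest of the PHF13 list, and the closest of them was 69776 bp from the EZH2 peak. For its length, ERBB4 held few peaks of either kind, at 2.2 PHF13 and 0.734 EZH2 peaks per Mb within 100 kb, against 8.37 and 8.49 on chromosome 2.

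TGFA (ENSG00000163235, chr2:70674416-70781325, minus strand), which encodes an EGFR ligand made by many carcinomas, showed the same arrangement. An EZH2 peak of 2044 bp (chr2:70779133-70781176) covered the start, enriched 4.03-fold with 119 summit fragments (interval 98.6 to 142). Its −log10 q of 31.8 was the highest of any peak within 100 kb of a member, at percentile 96.7 of the list. The PHF13 peak in reach lay in intron 2, 61.5 kb after the start, and was weak (chr2:70719379-70719535, fold enrichment 2.98, −log10 q 2.48, 19 fragments). It was 59597 bp from the EZH2 peak. A second PHF13 peak beyond the end of the gene had a fold enrichment of 2.71, and 2 EZH2 peaks lay upstream in ADD2, of which the wider (955 bp) was on multi-copy sequence.

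ERBB2 (ENSG00000141736, chr17:37844167-37886679, plus strand), the receptor without a ligand and a gene often amplified in carcinomas, had EZH2 but no PHF13 in reach. The main peak (chr17:37856092-37857094, 1003 bp) covered the canonical start, enriched 4.99-fold, the highest value of the 22 EZH2 peaks, with 47 fragments (interval 34.5 to 62.5) and a −log10 q of 16.1. The other (chr17:37872420-37872569) was narrow and lay in intron 12 (3.14-fold, −log10 q 2.55). Most other peaks in this gene-dense window were nearer to other genes. Of the 8 EZH2 peaks within 100 kb, 4 were nearest to NEUROD2, 1 to PPP1R1B and 1 to IKZF3, and the 2 PHF13 peaks were 343 bp from a GRB7 start and 701 bp from an IKZF3 start. GRB7 encodes an adaptor that binds ERBB2, and the PHF13 peak there was enriched 3.70-fold (−log10 q 4.03).

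ERBB3 (ENSG00000065361, chr12:56470583-56497289, plus strand) likewise had EZH2 peaks without PHF13. There were 4, none of them wider than 336 bp. The peaks in intron 1 lay 515 and 1570 bp after the canonical start, with fold enrichments of 2.75 and 2.83 and 21 fragments each. Both were weak, with −log10 q of 2.55 and 2.70. The highest was in coding exon 18 (chr12:56490187-56490424, fold enrichment 3.59, −log10 q 7.16), and the last was in untranslated sequence of exon 28 (fold enrichment 2.99), so 2 of the 4 were far from the canonical start and in reach through the gene body and other annotated starts. The 3 PHF13 peaks within 100 kb had their nearest protein-coding starts at RPS26, ESYT1 and MYL6, at 76, 932 and 31 bp.

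**Figure D3:**
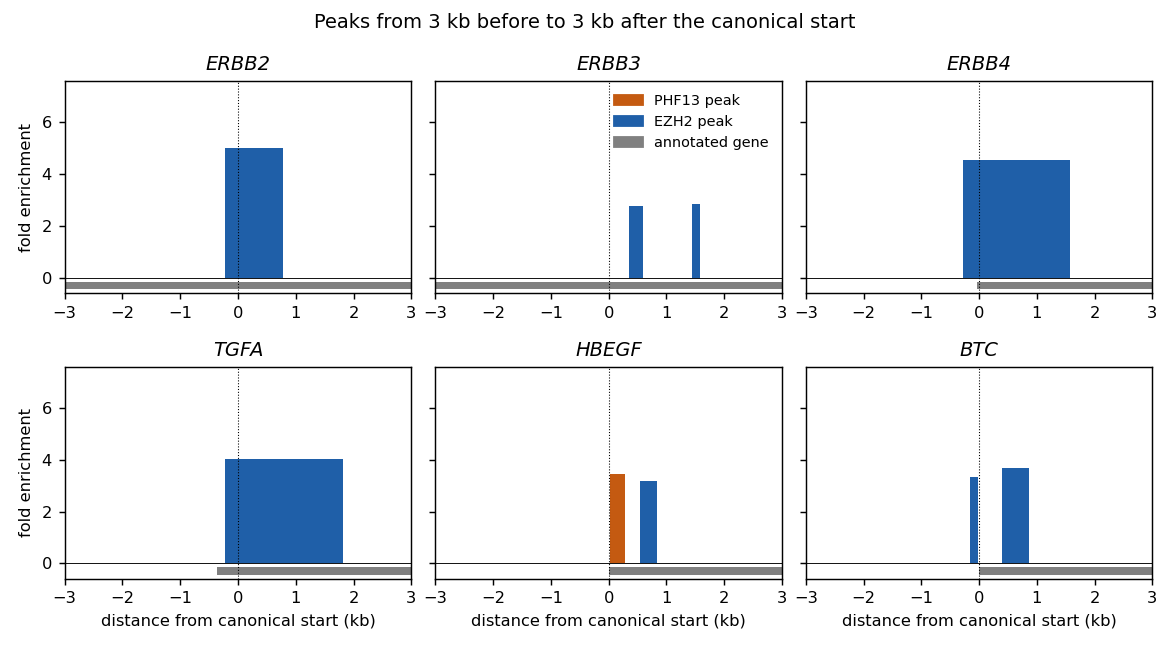
Peaks from 3 kb before to 3 kb after the canonical start of the 6 members with an EZH2 peak there, drawn to scale along the gene in kb (horizontal axis) with fold enrichment as height; EZH2 is blue, PHF13 orange and the annotated gene grey. ERBB2, ERBB4 and TGFA have 1 wide EZH2 peak across the start, ERBB3 and BTC have 2 narrow ones, and HBEGF has 1 of each antibody.

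HBEGF (ENSG00000113070, chr5:139712428-139726188, minus strand) encodes a membrane-bound ligand that is shed to act on EGFR and ERBB4, and it was the member with PHF13 at its start. The PHF13 peak (chr5:139725900-139726163) had its summit 89 bp after the start, in the untranslated part of exon 1. It was enriched 3.45-fold (−log10 q 4.12) with 23 fragments (interval 14.6 to 34.5). An EZH2 peak (chr5:139725344-139725642) followed in intron 2, with its summit 756 bp from the start. It was enriched 3.18-fold (−log10 q 2.97) with 18 fragments (interval 10.7 to 28.4). They shared no base, lay 257 bp apart and had summits 667 bp from each other. Of all peaks near the members, these were the closest pair of the 2 antibodies. The PHF13 peak had the highest GC content (74.0% in 500 bp) and the highest ratio of observed to expected CpG (0.926) of the 28 PHF13 peaks. Elsewhere within 100 kb, 3 PHF13 peaks had their nearest protein-coding starts at PFDN1, SLC4A9 and ANKHD1, and that near PFDN1 was on multi-copy sequence.

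BTC (ENSG00000174808, chr4:75669969-75719733, minus strand), which encodes betacellulin, had 2 EZH2 peaks at its start and no PHF13 peak within 100 kb. The larger (chr4:75718870-75719329) lay 666 bp into the gene and was enriched 3.70-fold (−log10 q 6.09, 27 fragments). The other (chr4:75719747-75719896) had its summit 81 bp upstream, and was enriched 3.32-fold (24 fragments).

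EREG and AREG, neighbouring genes for epiregulin and amphiregulin, had PHF13 peaks around them and no EZH2 peak within 100 kb. EREG (ENSG00000124882, chr4:75230862-75254466, plus strand) had its PHF13 peak in intron 1, 9.55 kb after the start (chr4:75240306-75240604, fold enrichment 4.78, −log10 q 7.43, 24 fragments), at percentile 83.4 of the list and with the 2 AP-1 matches printed above. Between the genes was a weak peak (fold enrichment 3.06, 15 fragments), and another (3.25, 16 fragments) lay 14.9 kb from the start of AREG (ENSG00000109321, chr4:75310853-75320722, plus strand), beyond its end. The same 3 peaks are within 100 kb of both genes and were counted once in the sums. EGF (ENSG00000138798, chr4:110834039-110934922, plus strand), the ligand that names the family, had no peak of either list within 100 kb. Its closest PHF13 summit was 426925 bp and its closest EZH2 summit 368906 bp from the start.

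All 4 of EGF, AREG, EREG and BTC lie on chromosome 4, which held fewer peaks than most chromosomes, at 2.14 PHF13 and 3.55 EZH2 peaks per Mb against 6.15 and 6.99 over the genome. Its part in the missing peaks at these ligands was not tested.

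The 3 wide EZH2 peaks at starts had high CpG ratios, and Polycomb sites in mammals often lie in CpG islands. A CpG ratio of at least 0.6 in 500 bp at the summit was found for 4 of the 11 EZH2 peaks in reach and 7 of the 22 within 100 kb, compared with 20.7% of the EZH2 list. For PHF13 the numbers were 1 of 10 and 3 of 28, compared with 14.1%. In reach of the members, EZH2 peaks had a median GC content of 62.2% and PHF13 peaks one of 43.5%, whereas the medians of the whole lists were 49.6% and 46.0%. Of the summits in reach, 0 of 11 for EZH2 and 9 of 10 for PHF13 lay more than 5 kb from every annotated start. Over the whole lists those shares were 54.4% and 61.8%. Base composition was not compared at matched distance from starts. The highest CpG ratios in reach among EZH2 peaks were 0.770 at TGFA, 0.743 at ERBB4, 0.661 at ERBB2 and 0.625 at ERBB3. The 100 bp at the EZH2 summit in intron 1 of 5 members (at ERBB3 the one nearer the start), on the plus strand of GRCh37, are shown with each CpG in capitals, to let the wide peaks be compared with the narrow ones.
TGFA, intron 1 (chr2:70779991-70780090): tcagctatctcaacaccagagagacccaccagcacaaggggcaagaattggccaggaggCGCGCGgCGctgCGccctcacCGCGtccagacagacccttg
ERBB4, intron 1 (chr2:213402835-213402934): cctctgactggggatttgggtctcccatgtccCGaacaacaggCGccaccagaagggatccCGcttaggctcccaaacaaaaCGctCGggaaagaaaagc
ERBB2, intron 1 (chr17:37856726-37856825): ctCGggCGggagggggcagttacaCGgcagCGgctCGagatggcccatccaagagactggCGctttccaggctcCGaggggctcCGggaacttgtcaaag
ERBB3, intron 1 (chr12:56474414-56474513): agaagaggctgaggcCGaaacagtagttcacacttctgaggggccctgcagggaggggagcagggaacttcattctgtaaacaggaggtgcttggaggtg
BTC, intron 1 (chr4:75719017-75719116): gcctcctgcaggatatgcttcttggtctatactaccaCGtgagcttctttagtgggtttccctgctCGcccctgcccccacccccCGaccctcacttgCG

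Those windows hold 7 CpGs at TGFA, 5 at ERBB4, 8 at ERBB2, 1 at ERBB3 and 4 at BTC. The windows of the 3 wide peaks thus held more CpGs than the 2 narrow ones, over stretches of equal length, but ERBB4 and BTC differed only by 5 against 4. Over 500 bp the CpG ratio at the narrow ERBB3 peak (0.625) was close to that at the wide ERBB2 peak (0.661), and that at BTC was lower (0.512).

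**Figure D4:**
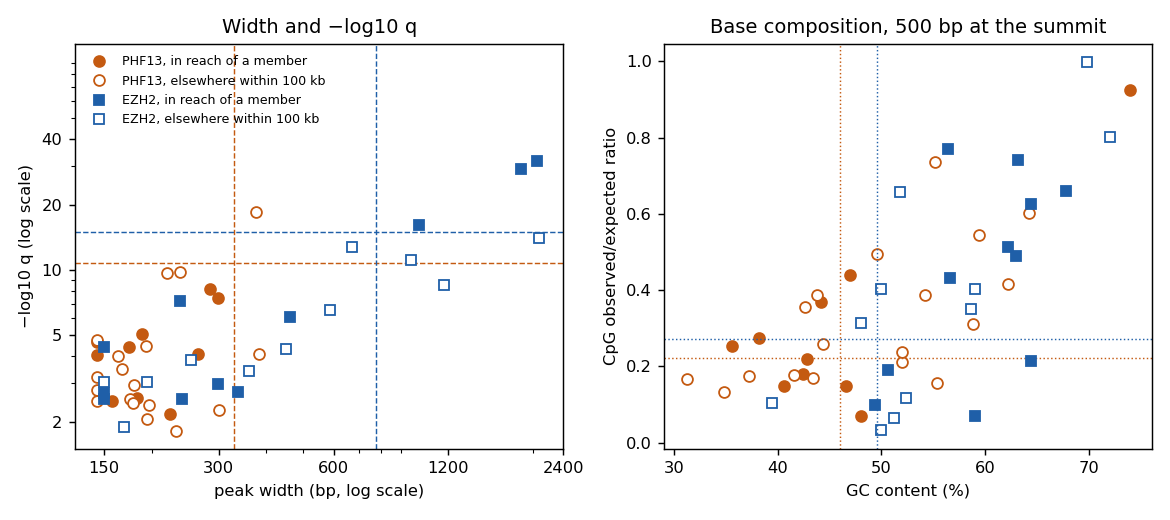
Left, width in bp against −log10 q, on log axes, for the members' peaks within 100 kb (circles PHF13, squares EZH2, filled when in reach), with dashed lines at the 90th percentile of each list; right, GC content against CpG ratio, with dotted lines at the median of each list. The wide EZH2 peaks of TGFA and ERBB4, at 2044 and 1861 bp, stand at the upper right of the left panel, and the PHF13 peak at the HBEGF start is at 74.0% GC in the right panel.

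None of the members' peaks was shared between the antibodies. Of the 28 PHF13 peaks within 100 kb, 0 overlapped an EZH2 peak (exact 95% interval up to 12.3%), and of the 22 EZH2 peaks 0 overlapped a PHF13 peak (up to 15.4%). Over the whole lists, 11.7% of PHF13 and 10.3% of EZH2 peaks overlapped the other list, and both shares lie inside these intervals. Multi-copy sequence lay under 34.4% of all PHF13 and 32.0% of all EZH2 peaks, but under 2 and 3 of the members' peaks. Among single-copy peaks only, 2.67% of PHF13 and 2.32% of EZH2 peaks overlapped the other list, and 0 of 26 and 0 of 19 near the members did, so that no difference from other single-copy peaks was detectable at these numbers. More than 5 kb from every annotated start lay 20 of the 28 PHF13 summits, compared with 61.8% of the whole list, and 6 of the 22 EZH2 summits, compared with 54.4%. The exact intervals of the members' shares were 51.3% to 86.8% for PHF13 and 10.7% to 50.2% for EZH2. They treat peaks as independent, which neighbouring peaks such as those at NEUROD2 are not, so they cannot be used to compare the 2 antibodies.

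Genes that act with these receptors were taken from a fixed list of 42. A PHF13 peak was in reach of 20 (47.6%), an EZH2 peak of 10 (23.8%), both of 4 (9.52%) and neither of 16. The shares of all protein-coding genes were 31.2%, 30.0% and 12.6% in the same order. No test against those shares was made for the list or its groups, and gene length, which bears on such counts, was not matched. PHF13 was in reach of 5 of the 6 adaptors, which link receptors to RAS and lipid signalling, and of 5 of the 6 PI3K-AKT genes, while EZH2 was in reach of 1 gene in each of these groups. Among the adaptors, the PHF13 peaks at SOS1, a RAS exchange factor, and at SHC1 had −log10 q of 5.02 and 5.00. Among the PI3K-AKT genes, AKT2, a kinase of the route, had a PHF13 peak across a start with a −log10 q of 11.6 but a fold enrichment of only 2.06. Its summit held 153 fragments, against a list median of 21, so its local background was high as well. PIK3CB, a catalytic subunit, had a PHF13 peak 1747 bp from a start with a fold enrichment of 4.92. Of the 9 RAS-MAPK genes, 2 had PHF13 (22.2%) and 1 had EZH2 in reach.

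EZH2 was in reach of 4 of 9 negative regulators (44.4%) and of 2 of the 5 other ligands (40.0%), beside the 30.0% of all genes. LRIG1, which lowers receptor levels, had an EZH2 peak 171 bp from a start (4.11-fold, −log10 q 16.7), and DUSP4, a MAP kinase phosphatase, had one across a start with a −log10 q of 7.80. The ligands were NRG3 (EZH2 −log10 q 25.3, fold enrichment 4.77, width 1162 bp) and NRG4 (−log10 q 12.0, fold enrichment 3.58), neuregulins that bind ERBB4. DUSP6, a phosphatase that acts on ERK, had strong peaks of both antibodies near a start, enriched 4.80-fold for PHF13 and 3.85-fold for EZH2, each with a −log10 q that rounds to 12.0. The other genes with both in reach were the sheddase ADAM10, HRAS and PIK3CB, where the EZH2 −log10 q near a start was 2.55, 3.40 and 2.55. At ADAM10 the PHF13 peak, and at HRAS the EZH2 peak, was on multi-copy sequence. Of the 3 STAT genes, STAT3 alone had a PHF13 peak, and of the 4 shedding genes PHF13 was in reach of 3 and EZH2 of 1.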

How the data were processed

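Peak lists of 1 PHF13 and 1 EZH2 ChIP-seq library from PANC-1 cells were used; the input library served as the control in peak calling. From the study's methods and the submitters' processing notes, the authors trimmed reads with Trim Galore 0.4.1, aligned them to hg19 with Bowtie2 2.4.1, removed duplicates with Picard and called peaks per library with MACS2 2.2.7.1. The deposited fold enrichment is a ratio of ChIP to local background at the summit, each with a pseudocount. The deposited −log10 p and −log10 q are MACS2 values, and the deposited score is a whole number derived from q. The lowest −log10 q was 1.30 in 1 list and 1.31 in the other, looser than the methods state for PHF13, and the EZH2 list is in narrow format although broad peaks are described, so lists were used as deposited and a −log10 q of at least 3 was an alternative.

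All peak ends fit the GRCh37 chromosome lengths. Genes came from GENCODE release 44 mapped to GRCh37, and all 10 members were matched by symbol. Fold enrichment and p were solved for a whole number of summit fragments and a local background, with a unique solution for 100% of peaks within a relative error of 0.0001. The solver and the peak counter were tested on simulated data. Total read numbers are unknown. GC and CpG were taken over 500 bp, motifs over 200 bp and 24-mer copies over 100 bp at the summit. Members, lists and tests were chosen with earlier results of these data known. Named were all members, pathway genes with both antibodies in reach or among the 5 highest −log10 q per list near a start, the 5 genes most like EGFR, and the nearest genes of other peaks. Alternatives were the start distance, gene body, q limits, copy number, coding starts, summit position, window size and overlap rule. Python 3.11.15 and scipy 1.17.1 were used.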

Additional observations from a re-analysis of the deposited data

How the results depend on the processing

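Of 54 alternative values, 41 stayed within 1.5 times the reported count. With starts within 5 kb only and no gene body, PHF13 was in reach of 1 member (21.0% of all genes), with 1 peak, and 1 member had both antibodies. At a −log10 q of at least 3, peaks of both antibodies were in reach of 1 member (ERBB4), EZH2 peaks in reach fell to 6 and PHF13 peaks within 100 kb to 16. At a −log10 q of at least 5, PHF13 was in reach of 3 members (EGFR, ERBB4 and EREG) with 3 peaks, both antibodies of 1 member, EZH2 peaks in reach numbered 5, and within 100 kb there were 6 PHF13 and 10 EZH2 peaks. A 50 kb window left 13 EZH2 peaks. Each of these settings takes in fewer peaks by construction. The overlap between the antibodies near the members stayed at 0 when summits within 500 bp were counted.

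No paired analysis was possible because each antibody has 1 library and no result comes from a test, and there was no replicate to leave out. Depth limits the weak peaks: summits held 15 to 119 fragments near the members, and total read numbers are unknown here, so an absent peak, as at EGF, does not show absent binding. Gene copy number in this cell line was not examined.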
